A study of Mus musculus with 4 samples.

Results

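Messenger RNA levels of 10 enzymes and partners that write, erase and maintain DNA methylation or the Polycomb mark were examined in splenic CD4+CD25+ T cells of mice that lack Helios (Helios KO, Ikzf2-/-) and of wild-type (WT) mice. The genes were chosen by name. They are Dnmt1, Uhrf1, Dnmt3a, Dnmt3b, Tet1, Tet2, Tet3, Ezh2, Eed and Suz12, and all 10 were present among the 16383 genes of the table. Ikzf2 encodes Helios, a zinc finger protein that regulates transcription, and the sort on CD4 and CD25 enriches regulatory T cells (Tregs). All mice were 7 weeks old, and each genotype had 2 RNA-seq libraries. The sources used here do not give the mouse strain, the exons removed by the null allele or whether each library came from a separate mouse, so each p-value reflects the spread of these libraries alone, part of which may be technical. CD25 is also carried by activated conventional T cells, and the labels name no second marker for the sort.

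DNA methylation is copied to the new strand after replication by DNMT1, which UHRF1 brings to half-methylated sites, while DNMT3A and DNMT3B set methylation on sites that lacked it. TET1, TET2 and TET3 oxidise methylcytosine and so start its removal. Polycomb repressive complex PRC2 methylates histone H3 at the residue named H3K27 through its catalytic subunit EZH2, with EED binding the finished mark and SUZ12 holding the complex together. In Tregs, loss of methylation at an intronic element of Foxp3 is known to accompany stable Foxp3 expression, TET enzymes take part in that loss, and EZH2 is known to sustain the Treg programme after activation.

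Of the 10 genes, 4 had groups that did not overlap. Tet1 and Suz12 lay lower in both Helios KO libraries and Ezh2 and Eed lay higher in both, and the other 6 overlapped between the genotypes. Over all 11571 tested genes, 12.5% lay higher in both Helios KO libraries, 15.7% lay lower in both and 28.2% did not overlap, so these counts are near the background. The windows around the start sites of these 4 genes (300 bases each, ending 50 past the start, from RefSeq on GRCm38.p6, the assembly called mm10) are shown because the groups of these genes were apart. Capitals mark the E2F motif TTTNNCGC, where each N is C or G, and the core GGGAA bound by Ikaros family proteins, each searched on both strands. The E2F form TTTCCCGC contains the reverse complement of GGGAA, so the marks overlap in Suz12. The windows are Tet1 at chr10:62887275-62887574 (minus strand), Suz12 at chr11:79992856-79993155 (plus strand), Ezh2 at chr6:47594981-47595280 (minus strand) and Eed at chr7:89980927-89981226 (minus strand). The Tet1 window lies at a start site inside the annotated span of the gene (62804570 to 62908996), not at its 5' end.
Tet1: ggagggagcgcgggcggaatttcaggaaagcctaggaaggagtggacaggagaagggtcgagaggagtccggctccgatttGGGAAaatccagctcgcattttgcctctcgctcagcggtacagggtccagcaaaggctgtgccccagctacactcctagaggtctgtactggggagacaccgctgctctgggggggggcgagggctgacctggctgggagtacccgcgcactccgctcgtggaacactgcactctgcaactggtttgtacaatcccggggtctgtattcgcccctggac
Suz12: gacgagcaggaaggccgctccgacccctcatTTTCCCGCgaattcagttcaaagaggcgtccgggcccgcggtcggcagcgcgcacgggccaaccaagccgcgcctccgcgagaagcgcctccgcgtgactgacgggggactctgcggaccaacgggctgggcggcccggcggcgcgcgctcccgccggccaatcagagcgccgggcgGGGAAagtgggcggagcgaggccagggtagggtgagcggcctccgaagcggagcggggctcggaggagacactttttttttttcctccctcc
Ezh2: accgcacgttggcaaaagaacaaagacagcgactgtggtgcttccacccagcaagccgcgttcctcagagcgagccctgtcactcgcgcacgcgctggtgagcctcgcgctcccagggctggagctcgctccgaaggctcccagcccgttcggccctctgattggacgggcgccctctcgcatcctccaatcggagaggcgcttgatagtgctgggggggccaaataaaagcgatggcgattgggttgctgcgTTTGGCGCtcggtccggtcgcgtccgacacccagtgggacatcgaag
Eed: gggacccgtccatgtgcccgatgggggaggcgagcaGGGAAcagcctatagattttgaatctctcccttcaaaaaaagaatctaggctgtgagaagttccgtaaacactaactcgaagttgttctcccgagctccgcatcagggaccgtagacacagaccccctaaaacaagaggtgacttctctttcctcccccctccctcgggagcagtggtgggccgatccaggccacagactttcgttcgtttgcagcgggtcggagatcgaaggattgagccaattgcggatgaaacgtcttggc

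The E2F motif was found in the windows of Suz12 and Ezh2 and in 1 window each of Dnmt1 and Uhrf1, so in 4 of the 10 genes. By window, it was found in 4 of the 15 listed for these genes and in 2.3% of all 32851 promoter windows. E2F factors drive genes of DNA replication. The GGGAA core was found in 10 of the 15 windows and in 62.7% of all windows, with 1 match in Tet1, 1 in Eed, 2 in Suz12 and 0 in Ezh2. CpG dinucleotides, the sites that these DNA methylation enzymes act on, numbered 17 in the Tet1 window, 17 in Eed, 31 in Ezh2 and 41 in Suz12, against a median of 7 over all windows. The E2F motif itself contains a CpG, and its share among windows of like CpG content was not computed. A match of letters is a description of the window and says nothing of binding.

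The deleted gene was measured first. Ikzf2 was at 4396 and 3104 in Helios KO and at 5282 and 7864 in WT, in normalised reads per kb of the median transcript, the scale of all levels unless another is named. Both Helios KO libraries were below both WT libraries (log2 fold change -0.80, SE 0.28), but reads remained, and since these values cover all exons they check the allele only weakly. The libraries held 42157138 to 52543073 recovered reads. Helios KO replicate 2 also held transcripts of other blood cells. There the summed level was 54486 for 7 macrophage markers, 24124 for 7 neutrophil markers, 11920 for 5 NK and cytotoxic markers, 7519 for the 3 erythroid markers in the table, 3750 for 4 dendritic cell markers and 1754 for 5 B cell markers. In the other libraries those sums were 921 to 2497, 2.47 to 76.9, 487 to 885, 108 to 497, 220 to 242 and 746 to 1348. Elane, a neutrophil protease, was at 0 in all libraries but that one. The 6 T cell markers in the table summed to 211719 and 184027 in Helios KO and 192380 and 195611 in WT, and the 5 Treg markers to 154128 and 105993 in Helios KO and 136977 and 131407 in WT. In bulk RNA, fewer cells of a type and less RNA per cell cannot be told apart. The Y-linked gene Kdm5d had a level of 1487 in replicate 1 of Helios KO, against 0 to 0.534 in the other 3 libraries. The labels give no sex, and any part of sex in the genotype differences was not tested.

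No gene passed the test between genotypes. After removal of genes that reached 10 in fewer than 2 libraries, limma was fitted to log2(value + 1), and 0% of the 11571 tested genes had a Benjamini-Hochberg adjusted p under 0.05. All 10 genes described here were tested and 0 were called, each with an adjusted p of 1.00. An unadjusted p under 0.05 was reached by 386 genes, 3.34% of those tested (1.28% higher and 2.06% lower in Helios KO), and by 1 of the 10, Tet1, which lay lower. With limma-voom on recovered reads, 0 genes were called, 385 had an unadjusted p under 0.05 and Tet1 was again the 1 of the 10. Leaving out a library changed the count over all genes, to 6.63% called without Helios KO replicate 1 and 0.353% called with Helios KO replicate 2 left out, but 0 of the 10 were called in either fit or with either WT library left out. The median log2 fold change was -0.05 over the 10 genes and -0.00 over all tested genes. An exact permutation test over these 2 and 2 libraries cannot give a two-sided p below 0.333.

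**Figure D1:**
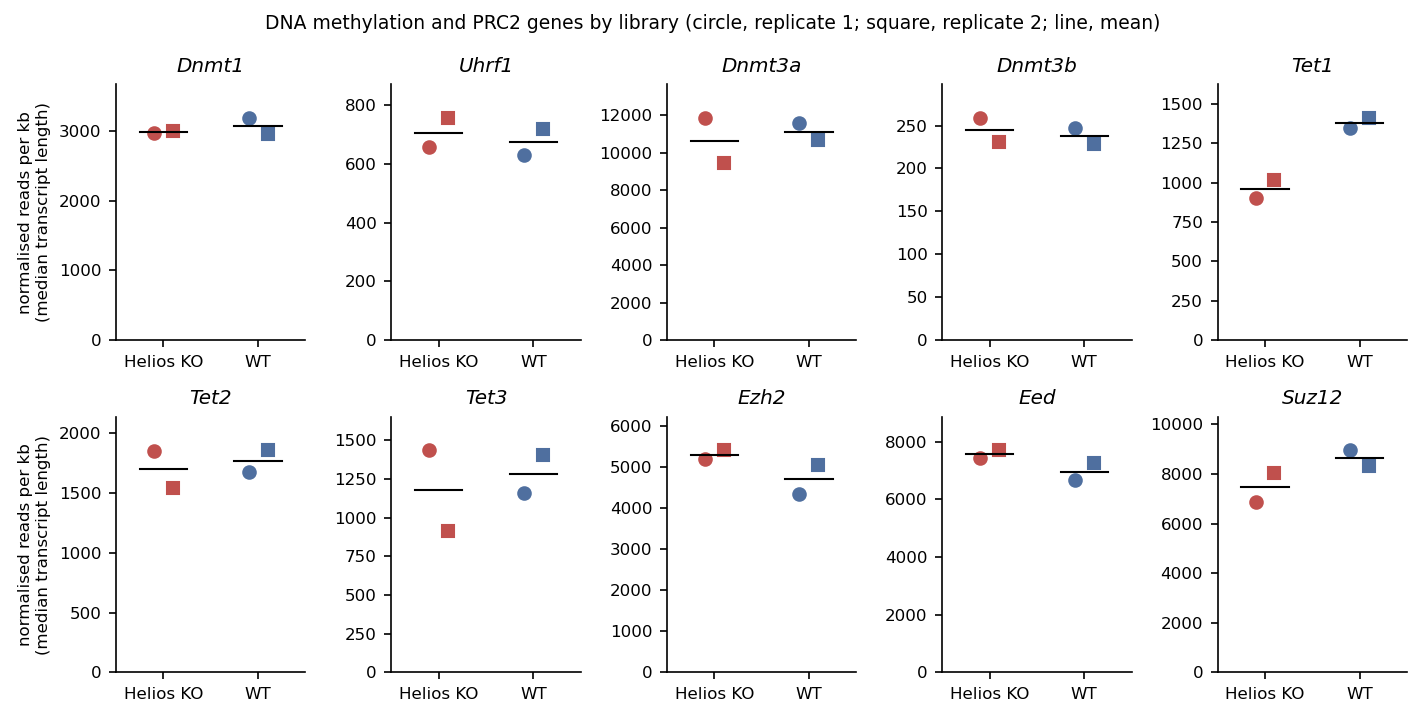
Level of each of the 10 genes in every library, in normalised reads per kb of the median transcript on axes that start at 0, with Helios KO on the left and WT on the right, circles for replicate 1, squares for replicate 2 and a line at the mean. Tet1 is the gene whose genotypes stand furthest apart, at 905 and 1014 in Helios KO and 1344 and 1411 in WT.

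Among the TET dioxygenases, Tet1 was the gene with the largest difference of the 10. Tet1 (ENSMUSG00000047146, chromosome 10, 62804570 to 62908996, minus strand, mm10) was at 905 and 1014 in Helios KO and at 1344 and 1411 in WT. Both Helios KO libraries lay below both WT libraries, and the gap between the genotypes was wider than the gap within either. The mean was 959 ± 77 in Helios KO and 1378 ± 47.5 in WT (SD, n = 2 each), a ratio of 0.696 and a log2 fold change of -0.52 (SE 0.12). Its 95% interval ran from -0.82 to -0.22, its unadjusted p was 0.00596 and its adjusted p was 1.00 in limma. A change at least as large in either direction was seen in 12.3% of tested genes. The difference was -0.61 with Helios KO replicate 1 as the sole knockout library and -0.44 with replicate 2 as the sole one. Replicate 1 is the library with the Y-linked transcript and replicate 2 the one with high levels of other blood cell markers, and the part of either in the difference was not tested. Tet1 was counted from 471 and 614 reads in Helios KO and 857 and 904 reads in WT. Exact Poisson 95% intervals on these reads cover counting error only and are not scaled for library depth. They ran from 429 to 516 and 566 to 665 in Helios KO and from 801 to 916 and 846 to 965 in WT. The libraries held 42157138 and 49025051 recovered reads in Helios KO and 52543073 and 50940291 in WT.

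Tet2 and Tet3 did not share this pattern. Tet2 (ENSMUSG00000040943, chromosome 3, 133463679 to 133545139, minus strand) was at 1855 and 1544 in Helios KO and at 1675 and 1860 in WT. Each genotype had a high and a low library, and the log2 fold change was -0.06 (SE 0.13, 95% interval -0.40 to 0.28). Tet3 (ENSMUSG00000034832, chromosome 6, 83362373 to 83459084, minus strand) was at 1436 and 916 in Helios KO and at 1161 and 1404 in WT. Tet3 was thus highest in Helios KO replicate 1 and lowest in Helios KO replicate 2, the widest spread within a genotype among the 10 genes (log2 difference of -0.65, replicate 2 minus replicate 1). Its log2 fold change was -0.15 (SE 0.25, 95% interval -0.81 to 0.50), and it was 0.17 without Helios KO replicate 2. The macrophage, neutrophil and other markers given above were high in that same library, and their part in this spread was not tested. Whether the difference of Tet1 exceeds that of Tet2 or Tet3 was not tested. As a share of the summed level of the 3 Tet genes, Tet1 made up 21.6% and 29.2% in Helios KO and 32.2% and 30.2% in WT.

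Among the maintenance genes, Dnmt1 differed little between the genotypes in its estimate. Dnmt1 (ENSMUSG00000004099, chromosome 9, 20907209 to 20959888, minus strand) was at 2976 and 3005 in Helios KO and at 3189 and 2951 in WT. The Helios KO libraries lay between the WT libraries. The log2 fold change was -0.04 (SE 0.10), with a 95% interval from -0.28 to 0.21 that leaves room for a change of that size either way. Uhrf1 (ENSMUSG00000001228, chromosome 17, 56303321 to 56323486, plus strand) was at 657 and 757 in Helios KO and at 629 and 719 in WT. Replicate 2 was the higher library in both genotypes, by a log2 difference of 0.21 in Helios KO and 0.19 in WT. The log2 fold change of Uhrf1 was 0.07 (SE 0.15, 95% interval -0.31 to 0.45). The ratio of Uhrf1 to Dnmt1 was 0.221 and 0.252 in Helios KO and 0.197 and 0.244 in WT, with overlapping groups.

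The de novo methyltransferases were likewise not separated by genotype. Dnmt3a (ENSMUSG00000020661, chromosome 12, 3806007 to 3914443, plus strand) was at 11854 and 9423 in Helios KO and at 11563 and 10672 in WT. Its highest and its lowest library were both Helios KO, and the log2 fold change was -0.07 (SE 0.14, 95% interval -0.42 to 0.28). Dnmt3b (ENSMUSG00000027478, chromosome 2, 153649450 to 153687730, plus strand) was at 259 and 231 in Helios KO and at 247 and 229 in WT. Replicate 1 was the higher library in both genotypes, and the log2 fold change was 0.04 (SE 0.19, 95% interval -0.45 to 0.53). Within each library the ratio of Dnmt3b to Dnmt3a was 0.0219 and 0.0245 in Helios KO and 0.0214 and 0.0215 in WT on this scale, and 0.245 and 0.275 in Helios KO and 0.240 and 0.241 in WT per kb of longest coding transcript. These groups did not overlap, but the WT value and the lower Helios KO value nearly met. Dnmt3l, a cofactor of the de novo enzymes without catalytic activity, was at 0 and 1.45 in Helios KO and 0.689 and 2.06 in WT and was not tested.

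Of the 3 core PRC2 subunits, Ezh2 and Eed had positive and Suz12 a negative log2 fold change, and all 3 intervals include 0. Ezh2 (ENSMUSG00000029687, chromosome 6, 47530139 to 47595341, minus strand) was at 5201 and 5417 in Helios KO and at 4352 and 5057 in WT. Both Helios KO libraries were above both WT libraries, with WT replicate 2 close to Helios KO replicate 1. Ezh2 had a log2 fold change of 0.18 (SE 0.11, 95% interval -0.10 to 0.46), which was 0.07 without WT replicate 1 and 0.29 without WT replicate 2. Eed (ENSMUSG00000030619, chromosome 7, 89954654 to 89980983, minus strand) was at 7435 and 7706 in Helios KO and at 6663 and 7251 in WT. The order of libraries was the same as for Ezh2, and the log2 fold change was 0.12 (SE 0.10, 95% interval -0.12 to 0.37). Suz12 (ENSMUSG00000017548, chromosome 11, 79993106 to 80034123, plus strand) was at 6861 and 8046 in Helios KO and at 8960 and 8318 in WT. The lowest library was Helios KO replicate 1, and Suz12 had a log2 fold change of -0.22 (SE 0.12, 95% interval -0.51 to 0.08). With replicate 1 as the sole Helios KO library it was -0.33, and with replicate 2 as the sole one -0.10, so the lower value rested mostly on replicate 1.

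**Figure D2:**
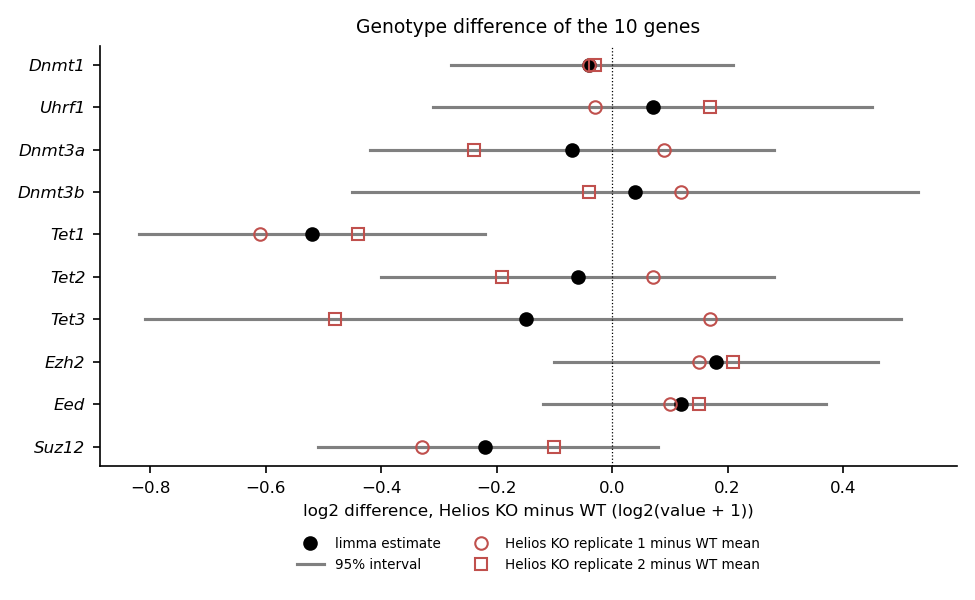
Log2 difference of each gene, Helios KO minus WT, on the log2(value + 1) scale, with the limma estimate as a filled point, its 95% interval as a bar, and the difference of each Helios KO library from the WT mean as an open circle (replicate 1) or square (replicate 2). Of the 10 intervals, that of Tet1 (-0.82 to -0.22) is the one that lies apart from 0, and Tet3 has the widest gap between its open symbols.

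Ratios between subunits, which cancel any scaling of a whole library, are given for pairs of these genes. The ratio of Ezh2 to Suz12 was 0.758 and 0.673 in Helios KO and 0.486 and 0.608 in WT, and that of Eed to Suz12 was 1.08 and 0.958 in Helios KO and 0.744 and 0.872 in WT. Both ratios were higher in both Helios KO libraries, and both have Suz12 as the denominator. That order was fixed by the levels above, since Ezh2 and Eed lay higher and Suz12 lower in both Helios KO libraries. It therefore adds nothing to those levels. How often the ratios of other gene pairs lie apart was not computed. Per kb of longest coding transcript they were 1.63 and 1.45 in Helios KO against 1.05 and 1.31 in WT for Ezh2 to Suz12, and 2.44 and 2.15 in Helios KO against 1.67 and 1.96 in WT for Eed to Suz12. These pairs were chosen after the values were seen, and no test was made. Ezh2 to Eed was 0.700 and 0.703 in Helios KO and 0.653 and 0.697 in WT. It too was higher in both Helios KO libraries, but the nearest values of the genotypes almost met. Ezh1, the second catalytic subunit that can take the place of EZH2 and is known to prevail in resting cells, was at 12872 and 12426 in Helios KO and at 14256 and 12770 in WT. Its ratio to Ezh2 was 2.47 and 2.29 in Helios KO and 3.28 and 2.53 in WT, lower in both Helios KO libraries. The nearest values of the genotypes, 2.47 and 2.53, almost met here as well. Ezh1 itself overlapped between the genotypes (log2 fold change -0.09, SE 0.10).

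**Figure D3:**
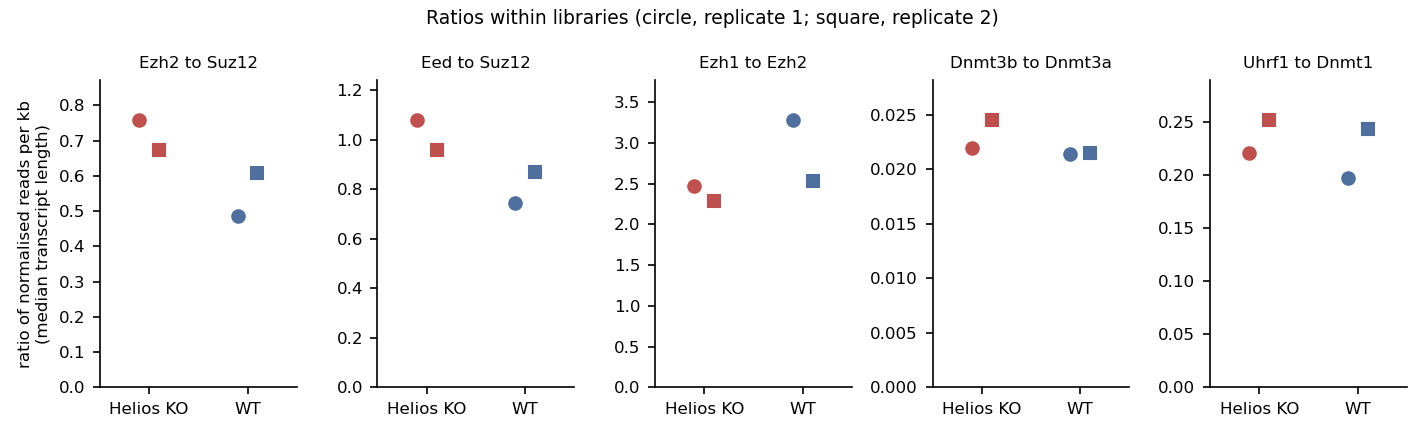
Ratio of 2 genes within each library, from normalised reads per kb of the median transcript, on axes that start at 0, with Helios KO on the left and WT on the right and circles and squares for replicates 1 and 2. Ezh2 to Suz12 was 0.758 and 0.673 in Helios KO against 0.486 and 0.608 in WT, while Uhrf1 to Dnmt1 overlapped.

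The order of the 10 levels depended on which transcript length they were divided by. On the deposited scale the WT means ran from Dnmt3a (11117), Suz12 (8639), Eed (6957) and Ezh2 (4705) through Dnmt1 (3070), Tet2 (1768), Tet1 (1378) and Tet3 (1282) to Uhrf1 (674) and Dnmt3b (238). On that scale Suz12 and Eed overlapped over the 4 libraries, as did Tet1 and Tet3, and the other neighbours were apart. The annotation lists many short transcripts for several of these genes. For Tet1 the median over 10 transcripts is 599.5 bases and the longest coding transcript is 14369, for Dnmt3a the median over 18 is 820.5 and the longest 9685, and for Suz12 the median over 6 is 631 and the longest 4373. For Dnmt1 the figures are 5248 and 5870. Per kb of longest coding transcript, Dnmt1 came first at 2673 ± 18.2 in Helios KO and 2745 ± 151 in WT, ahead of Eed, Ezh2, Suz12 and Dnmt3a. Tet1 came last on that scale, at 40.0 ± 3.21 in Helios KO and 57.5 ± 1.98 in WT (SD, n = 2 each), below Dnmt3b at 233 ± 18.8 in Helios KO and 226 ± 12.3 in WT. Suz12 and Dnmt3a overlapped over the 4 libraries on that scale, as did Uhrf1 and Tet3, and Tet3 and Tet2. The share of Tet1 in the summed Tet level was then 3.25% and 4.95% in Helios KO and 5.55% and 5.04% in WT. A log2 difference of a single gene between genotypes does not depend on the length, apart from the pseudocount, but shares of a sum do. Tet2 made up 44.2% and 44.4% of the Tet sum in Helios KO and 40.1% and 39.8% in WT on the deposited scale, where the groups did not overlap, and 41.9% and 47.4% in Helios KO and 43.5% and 41.7% in WT per kb of longest coding transcript, where they did.

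**Figure D4:**
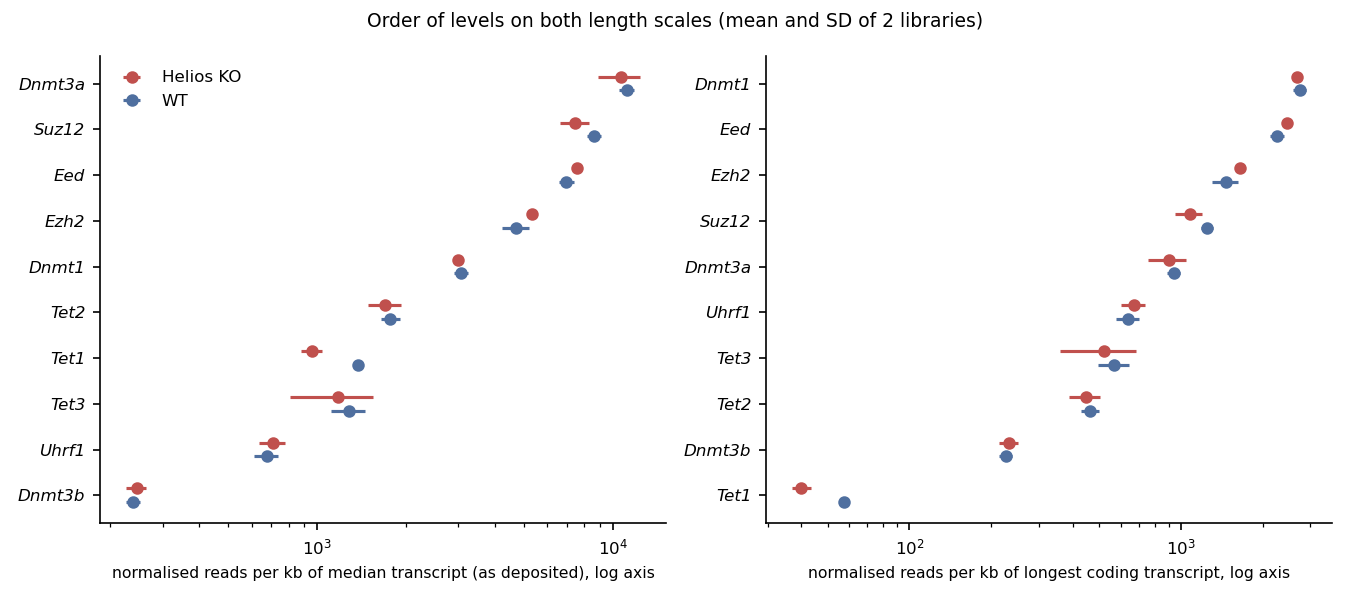
Mean level of each gene with its SD over 2 libraries, Helios KO above WT in each row, per kb of median transcript as deposited (left) and per kb of longest coding transcript (right), on log axes. Rows are ordered by the WT mean. Dnmt3a leads on the left and Dnmt1 on the right, and on the left Tet1 lies below Tet3 in Helios KO (959 against 1176) and above it in WT (1378 against 1282), while it is last on the right in both genotypes.

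Partners and readers of DNA methylation lay on both sides of WT. Of 22 tested genes, 2 lay higher and 2 lower in both Helios KO libraries, against 12.5% and 15.7% over all tested genes, and 0 passed the test. Their log2 fold changes ran from -0.32 to 0.52, with a median of -0.03. The highest was Gadd45b, at 3335 and 6267 in Helios KO and at 2927 and 3480 in WT, where Helios KO replicate 2 stood above the other 3 libraries. The 2 with the smallest p were Zbtb4, which binds methylated DNA, and Gadd45g, of a stress-induced family linked to DNA repair and demethylation. Zbtb4 was at 1697 and 1440 in Helios KO and at 1911 and 1986 in WT (log2 fold change -0.32, SE 0.12). Gadd45g was at 1198 and 1461 in Helios KO and at 1036 and 1057 in WT (log2 fold change 0.34, SE 0.14). Gene products that supply or use the methyl donor and the oxoglutarate on which TET enzymes depend had a median of 0.03 over 15 tested genes, with 1 higher, 1 lower (background 12.5% and 15.7%) and 0 called. Idh2, which makes oxoglutarate in mitochondria, was at 3938 and 4995 in Helios KO and at 3691 and 3152 in WT. Shmt1, an enzyme of one-carbon metabolism, was at 1568 and 1333 in Helios KO and at 1576 and 1656 in WT.

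Among other Polycomb genes, the 10 tested accessory PRC2 subunits all overlapped between the genotypes. Their log2 fold changes ran from -0.15 to 0.02, with a median of -0.06 and 0 called. Jarid2, which helps recruit PRC2, was at 10441 and 12241 in Helios KO and at 12918 and 11946 in WT. Of 19 tested PRC1 subunits, which place ubiquitin on histone H2A and compact chromatin, 0 lay higher, 3 lay lower and 0 were called, with a median of -0.04. Over all tested genes 12.5% lay higher and 15.7% lower, so the share lower is near the background. Phc1, a polyhomeotic subunit, was at 441 and 483 in Helios KO and at 625 and 576 in WT (log2 fold change -0.38, SE 0.15). Kdm2b, which brings a variant PRC1 to CpG islands, was at 2754 and 2783 in Helios KO and at 3086 and 3071 in WT (log2 fold change -0.15, SE 0.09).

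Of 6 tested genes that remove H3K27 methylation or H2A ubiquitin, 1 lay higher, 3 lay lower and 0 were called, where 12.5% and 15.7% of all tested genes lay so. Asxl1, a partner of the H2A deubiquitinase BAP1, was at 16795 and 14552 in Helios KO and at 18482 and 18258 in WT (log2 fold change -0.23, SE 0.11). Its relative Asxl2 was at 2203 and 1722 in Helios KO and at 2261 and 2446 in WT (log2 fold change -0.27, SE 0.15). Kdm6b, an H3K27 demethylase induced by inflammatory signals, was at 178 and 184 in Helios KO and at 127 and 200 in WT. Kdm6a, the X-linked H3K27 demethylase, was picked out after its values were seen. It was at 2376 and 4081 in Helios KO and at 4515 and 4334 in WT, so that Helios KO replicate 1, the library with Kdm5d, stood apart from the other 3.

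**Figure D5:**
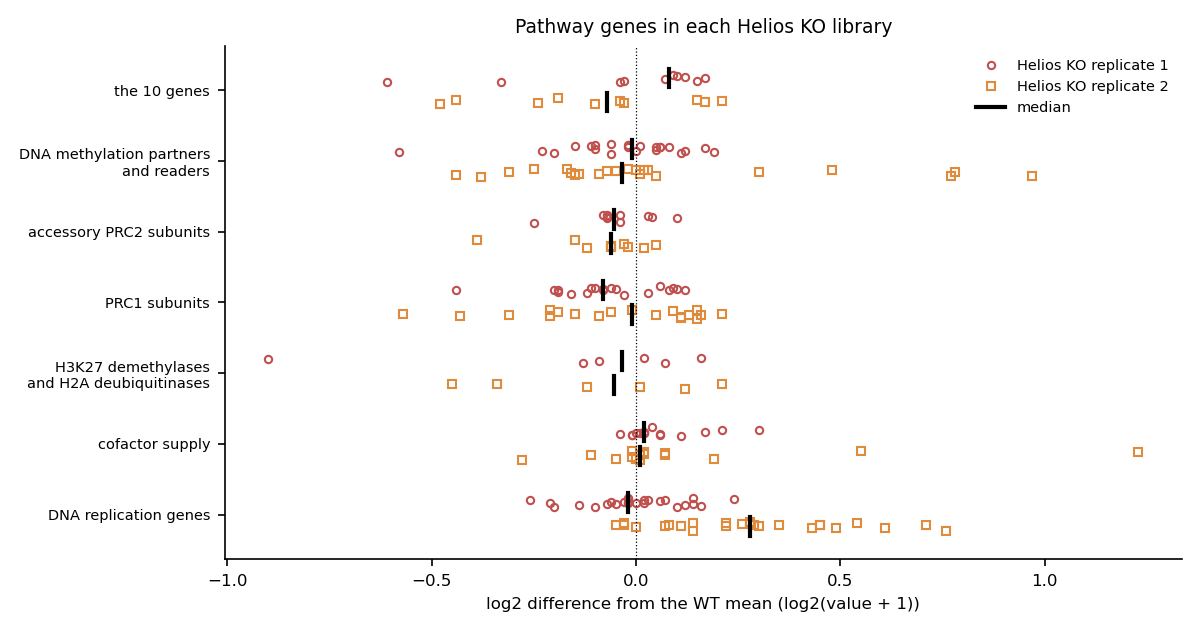
Difference of each tested gene from its WT mean on the log2(value + 1) scale, in Helios KO replicate 1 (circles) and replicate 2 (squares), by gene list, with bars at the medians. The medians of the 10 genes are 0.08 and -0.07 in the 2 libraries, and the DNA replication list has medians of -0.02 and 0.28.

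DNA replication genes are given beside Dnmt1, Uhrf1 and Ezh2 because these are known to be expressed with the cell cycle. Of 25 tested replication genes, 4 lay higher and 0 lower in both Helios KO libraries and 0 were called, against 12.5% higher and 15.7% lower over all tested genes. Their median difference from the WT mean was -0.02 in replicate 1 of Helios KO and 0.28 in replicate 2. For the same libraries the difference was -0.03 and 0.17 for Uhrf1, 0.15 and 0.21 for Ezh2, and -0.04 and -0.03 for Dnmt1. Mcm2, a subunit of the replicative helicase, was at 16245 and 18047 in Helios KO and at 15517 and 14094 in WT. Rrm1, a subunit of ribonucleotide reductase, was at 8507 and 11136 in Helios KO and at 7977 and 8274 in WT. Replicate 2 of Helios KO is also the library with high levels of other blood cell markers. The part of those cells, or of cycling cells of any type, in the values of this paragraph was not tested.

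Of 6 Treg genes that carry demethylated regions in Tregs, 0 lay higher, 1 (Ikzf2) lay lower and 0 were called (background 12.5% higher and 15.7% lower). Foxp3, the lineage factor of Tregs, was at 41264 and 25224 in Helios KO and at 37578 and 33448 in WT. The interleukin 2 receptor chain Il2ra was at 40457 and 26759 in Helios KO and at 39462 and 39620 in WT. The median difference of the list from the WT mean was 0.18 in replicate 1 of Helios KO and -0.44 in replicate 2. Of the 10 genes, Dnmt3a (0.09 and -0.24), Dnmt3b (0.12 and -0.04), Tet2 (0.07 and -0.19) and Tet3 (0.17 and -0.48) likewise lay above the WT mean in replicate 1 and below it in replicate 2. Uhrf1 lay the other way (-0.03 and 0.17), Ezh2 (0.15 and 0.21) and Eed (0.10 and 0.15) lay above it in both, and Tet1 (-0.61 and -0.44), Suz12 (-0.33 and -0.10) and Dnmt1 (-0.04 and -0.03) lay below it in both. The share of all tested genes with each of these patterns was not computed. Helios KO replicate 2 is also the library with high levels of other blood cell markers, and their part in these differences was not tested.

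Genes that DNA methylation or Polycomb is known to keep silent in many cells ranged from 0 to 1605 normalised reads per kb in these libraries. Of 11 germline genes in the table, 2 passed the filter on low values and 0 were called. Dazl, an RNA-binding protein of germ cells, was at 15.4 and 7.13 in Helios KO and at 4.84 and 11.6 in WT. Brdt, a bromodomain protein of the testis, was at 21 and 30.5 in Helios KO and at 36.1 and 20.6 in WT. Of 15 textbook Polycomb targets in the table, 5 passed the filter and 0 were called. Cdkn1c, a cell cycle inhibitor, was at 161 and 148 in Helios KO and at 192 and 168 in WT. Cdkn2a, an inhibitor of the cell cycle kept silent by Polycomb in many cells, was at 0 and 0 in Helios KO and at 0 and 2.14 in WT. The helper and cytotoxic lineage factor Tbx21 was at 478 and 1605 in Helios KO and at 452 and 407 in WT, and the related Eomes was at 189 and 679 in Helios KO and at 216 and 205 in WT. Hoxa7 was at 8.56 and 46.6 in Helios KO and at 14 and 17.4 in WT, and Zbtb16, a factor of innate-like T cells, at 4.23 and 76.9 in Helios KO and at 13.6 and 13 in WT. These 4 were high in Helios KO replicate 2. In that library macrophage markers summed to 54486, neutrophil markers to 24124, NK and cytotoxic markers to 11920 and erythroid markers to 7519. The part of any of those cells in these values was not tested.

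Reads of overlapping genes can enter these values where exons overlap. Overlap was taken here over whole gene spans, introns included, so it does not show that exons overlap. The library preparation does not mark strand, and 7 of the 10 genes overlap an annotated gene on the opposite strand, among them Dnmt3aos at Dnmt3a, Gm26625 at Ezh2 and Gm26563 at Suz12. Of the overlapping genes, 1 was in the table, B230319C09Rik at Tet3, with 5.03 and 7.57 in Helios KO and 9.25 and 10.2 in WT. Tet1 overlaps 2 annotated genes on its own strand, Gm48353 over 1871 bases and Gm26479 over 106 bases. In all, 9 of the 10 genes overlap another annotated gene, the exception being Uhrf1.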

How the data were processed

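RNA-seq of sorted CD4+CD25+ spleen cells from 2 Helios KO and 2 WT samples was used, with groups and replicate numbers from the sample titles. Per the labels' protocols, cDNA was made from 5 ng of RNA with a SMART-Seq kit (10 cycles) and tagmented (12 cycles). The submitters' processing notes name bcl2fastq 2.17.1.14 and build mm10. The sources used here do not give the aligner, counter or normalisation method. Per the file headers, the signal values that the authors deposited are normalised reads divided by median transcript length in kb.

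All 16383 genes matched GENCODE M21 by identifier. Multiplying by its median transcript lengths gave whole reads for 97.2% of 58026 nonzero values (tolerance 0.01 read). These length-scaled values are not counts, so the test was limma (version 3.58.1, R 4.3.3) on log2(value + 1), with genotype as the only term, a variance trend and robust moderation, and was tested on simulated data. The pseudocount understates changes of low genes. Reads of replicates differed by far more than sampling noise (chi-square per degree of freedom 120 in Helios KO and 35.4 in WT). The edgeR alternative was not run.

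The members and gene lists were chosen with earlier results of these data known, so they support nothing independently. Named genes are Ikzf2, Foxp3, the 10 members, Ezh1, Kdm6b and, per pathway list, the called genes or the 2 with the smallest p. Others named were chosen after their values were seen. Alternatives changed scaling, filter, pseudocount, test or block, or left out 1 library. Motifs were searched in RefSeq promoter windows, in which all 10 genes were found.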

Additional observations from a re-analysis of the deposited data

How the results depend on the processing

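The count of called genes was 0 under every setting that kept all 4 libraries (median-ratio scaling, equal totals of recovered reads, no low-value filter, a value of at least 100, a pseudocount of 0.1, limma-voom and the replicate block). Leaving out 1 library gave 0 to 758 called genes, with 758 without Helios KO replicate 1 and 40 when replicate 2 was left out, where the spread of the lone knockout library is taken from WT. The count at an unadjusted p under 0.05 was 163 to 1774 in those fits, against 386 with all libraries. Of the 10 members 0 were called in any fit, and the smallest adjusted p in limma was 0.18, for Tet1 without Helios KO replicate 1. Over the 7 settings with all libraries, the log2 fold changes of the members moved by at most 0.01 and no named gene changed direction. With the replicate number as a block, 335 genes had an unadjusted p under 0.05 and 0 were called. The deviations of same-numbered libraries correlated across genes at 0.106, but the labels do not say that the numbers mark a shared mouse or day.

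The log2 fold change of Tet1 was -0.61 to -0.44 over the 4 fits that left out a library, that of Suz12 -0.33 to -0.10, that of Ezh2 0.07 to 0.29 and that of Eed 0.06 to 0.18. Other members crossed 0. Those ranges were -0.09 to 0.02 for Dnmt1, -0.03 to 0.17 for Uhrf1, -0.24 to 0.09 for Dnmt3a, -0.04 to 0.12 for Dnmt3b, -0.19 to 0.07 for Tet2 and -0.48 to 0.17 for Tet3. Foxp3 ranged from -0.49 to 0.22, Il2ra from -0.56 to 0.03 and Kdm6b from -0.14 to 0.51. Ikzf2 ranged from -1.09 to -0.52 and was -1.05 without Helios KO replicate 1. In that fit the sole knockout library is Helios KO replicate 2, the one with high levels of other blood cell markers. The cause of these shifts was not tested.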
